A study of Mus musculus with 7 samples.

Results

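The DNA replication and mitosis genes were 46 genes chosen by symbol, 24 of S phase and 22 of G2/M, and were read from a count table of 34305 rows. They were picked with earlier results of these data known, although the rule itself names symbols and uses no measured value. All 46 were found, and all passed the filter on low counts. They were followed in mouse haematopoietic stem and progenitor cells (HSPCs), the blood-forming cells that divide and mature in culture. In the MN1 group (3 libraries) the cells were transduced to overexpress MN1, a transcriptional co-regulator that drives acute myeloid leukaemia when overexpressed. In the MN1pQdel group (3 libraries) they overexpressed MN1-∆pQ, the protein without its polyglutamine stretch. The noTD library (1 library) came from untransduced cells; its title and overexpression label say so, although its source label calls the cells transduced. Per the labels, cells were transduced and sorted and then grown for 7 to 9 days with IL-3, IL-6 at 10 ng/mL and stem cell factor at 20 ng/mL, and poly(A) RNA was read at 150 bases from both ends. The sources used here do not give the day of each library, the mouse strain, its age or the promoter of the construct. The series text calls the samples of a transduced group independent, but no label ties them to separate animals, so the p-values below cover the spread among these libraries, which may be technical.

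Cells copy their genome once per division. In G1 the licensing factors Cdc6 and Cdt1 load the Mcm2-7 helicase onto origins, and in S phase Cdc45 and the GINS complex turn it into the moving helicase that primase, the sliding clamp and the clamp loader follow. In G2 and mitosis cyclin B with Cdk1 starts chromosome condensation, Aurora and Polo kinases build the spindle, the checkpoint kinases hold the cell until every chromosome is attached, and the anaphase promoting complex (APC/C) with Cdc20 then ends mitosis. In dividing cells the S phase genes are switched on mainly by E2F factors, and the G2/M genes by B-Myb and FOXM1 through MuvB complexes.

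Libraries held 38210660 to 43194988 counts in MN1, 43025153 to 67728658 counts in MN1pQdel and 38642911 counts in noTD. Values are CPM, the count of a gene scaled to a fixed library size, after TMM scaling, which sets libraries to a common level by the trimmed mean of their gene ratios. Mn1 itself had 286 to 314 CPM in MN1, 686, 403 and 730 CPM in MN1pQdel replicates 1 to 3 and 34 CPM in noTD. The amount of Mn1 RNA therefore differed along with the protein, and the table does not part construct from endogenous reads. HSPC markers were present in every library when summed. The 14 of the list had sums of 2360 to 3030 CPM in MN1, 1500 to 2630 CPM in MN1pQdel and 2450 CPM in noTD. Single markers differed: 6 were higher in MN1 (Cd34, Flt3, Meis1, Sox4, Cd27 and Adgrg1) and 0 lower. Flt3 had 64.4 to 111 CPM in MN1, 0.249 to 6.98 CPM in MN1pQdel and 1.64 CPM in noTD. Kit, the stem cell factor receptor, had 236 to 428 CPM in MN1, 248 to 878 CPM in MN1pQdel and 613 CPM in noTD. Kit and Gata2, the most abundant of the 14, had log2 fold changes of -0.78 and -0.96 and did not pass. The lymphoid marker Cd3e, of T cells, stayed at or below 0.111 CPM in all 7 libraries. The 10 lymphoid markers summed to 39.8 to 47.1 CPM in MN1, 23.4 to 32.4 CPM in MN1pQdel and 19.4 CPM in noTD; 4 of them passed the filter and 1, Rag1, was higher in MN1. Markers of maturing myeloid cells were also present and differed between the groups. The 20 neutrophil markers summed to 5190 to 9370 CPM in MN1, 32200 to 43000 CPM in MN1pQdel and 44600 CPM in noTD, and all 20 were lower in MN1 than in MN1pQdel (edgeR quasi-likelihood, adjusted p by Benjamini-Hochberg under 0.05). The 14 mast cell and basophil markers summed to 1810 to 4510 CPM in MN1, 4120 to 22400 CPM in MN1pQdel and 19000 CPM in noTD, and 9 of them were lower in MN1. The 9 eosinophil markers in the table summed to 13.3 to 21.4 CPM in MN1, 235 to 3660 CPM in MN1pQdel and 3850 CPM in noTD, and 7 of them were lower in MN1. The 14 monocyte and macrophage markers summed to 1660 to 1720 CPM in MN1, 3780 to 5930 CPM in MN1pQdel and 8370 CPM in noTD, with 7 lower in MN1, and of the 12 erythroid and megakaryocyte markers (608 to 1020 CPM in MN1, 675 to 1250 CPM in MN1pQdel and 997 CPM in noTD) 0 passed in edgeR, where DESeq2, like an unadjusted p under 0.05, had 1 higher and 2 lower. MN1pQdel replicate 2 stood apart: its eosinophil sum of 235 CPM and its mast cell and basophil sum of 4120 CPM lay far below the 3380 and 3660 CPM, and the 18000 and 22400 CPM, of replicates 1 and 3. Counts, medians and the fold changes of the 46 genes are therefore given with and without that library, some of the fold changes only as a range.

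Promoter letters were compared between the S phase and the G2/M genes, and are given for the 2 genes of each phase with the largest fold change between MN1 and MN1pQdel among those with a RefSeq window that holds a match. Windows of 300 bases around annotated starts (250 before, 50 after; RefSeq, GRCm38.p6) were available for 38 of the 46 genes, in 39 windows, since Mcm7 has 2. Without a window were Mcm4, Gins1, Gins2, Rfc2, Ccne2, Ccna2, Aurkb and Tpx2. Both strands were searched for the CHR element bound by MuvB complexes (TTTGAA or TTCGAA), the CCAAT box bound by NF-Y (CCAAT) and the E2F site (TTTCCCGC, TTTGGCGC, TTTCGCGC or TTTGCCGC). The 200 bases before the start are printed 5′ to 3′ on the gene's strand, with matches in capitals. In Mcm7 (chr5:138171884-138172083, minus strand) the capitals mark, from the left, a CHR element, an E2F site on the other strand (GCGGGAAA) and 2 CCAAT boxes on the other strand (ATTGG). An E2F site and a CCAAT box lie 17 and 24 bases after this start, outside the printed stretch. The other Mcm7 window, not printed, holds a CCAAT box on the other strand and neither a CHR element nor an E2F site. In Mcm2 (chr6:88898781-88898980, minus strand) they mark a CCAAT box on the other strand and a CHR element. In Cdc20 (chr4:118437344-118437543, minus strand) they mark a CCAAT box, a CHR element and a second CCAAT box close to the start. In Bub1b (chr2:118598011-118598210, plus strand) they mark a CHR element and a CCAAT box on the other strand, and a further CHR element lies 41 bases after the start, outside the printed stretch.
Mcm7: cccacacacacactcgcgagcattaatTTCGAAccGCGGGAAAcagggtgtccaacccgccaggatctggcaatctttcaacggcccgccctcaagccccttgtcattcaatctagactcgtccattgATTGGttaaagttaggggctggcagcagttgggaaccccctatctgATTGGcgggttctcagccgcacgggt
Mcm2: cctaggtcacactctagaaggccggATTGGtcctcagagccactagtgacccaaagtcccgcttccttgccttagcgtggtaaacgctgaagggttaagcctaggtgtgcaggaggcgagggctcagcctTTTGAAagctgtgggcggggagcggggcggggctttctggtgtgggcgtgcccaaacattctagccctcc
Cdc20: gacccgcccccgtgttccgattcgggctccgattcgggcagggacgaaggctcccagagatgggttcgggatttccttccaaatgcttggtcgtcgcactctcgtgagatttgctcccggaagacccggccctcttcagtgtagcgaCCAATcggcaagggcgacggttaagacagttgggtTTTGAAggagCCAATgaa
Bub1b: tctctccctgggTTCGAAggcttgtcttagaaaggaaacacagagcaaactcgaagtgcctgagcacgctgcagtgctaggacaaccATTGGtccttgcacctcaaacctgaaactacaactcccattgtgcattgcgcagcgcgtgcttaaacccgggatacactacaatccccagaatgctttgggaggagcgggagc

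The letters differed between the phases. A CHR match was found in 4 of 20 S phase windows (20.0%), in 15 of 19 G2/M windows (78.9%) and in 19.2% of all 32851 windows. The printed windows of Mcm7 and Mcm2 are among those 4 and so are not typical of S phase genes, and Mcm2 has no E2F match. An E2F match was found in 8 of 20 S phase windows (40.0%), in 1 of 19 G2/M windows, that of Cdk1 (5.26%), and in 2.26% of all windows. CCAAT was found in 70.0% of S phase windows, 89.5% of G2/M windows and 37.4% of all windows. In 14 of 19 G2/M windows a CHR match began within 50 bases of the start, against 1 of 20 S phase windows and 5.31% of all windows; this distance was chosen after the matches were seen. Neighbouring E2F matches overlap each other in Mcm5 and Mcm6, and neighbouring CCAAT matches in Ube2c. A match is a run of letters and not a measured binding site.

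**Figure D1:**
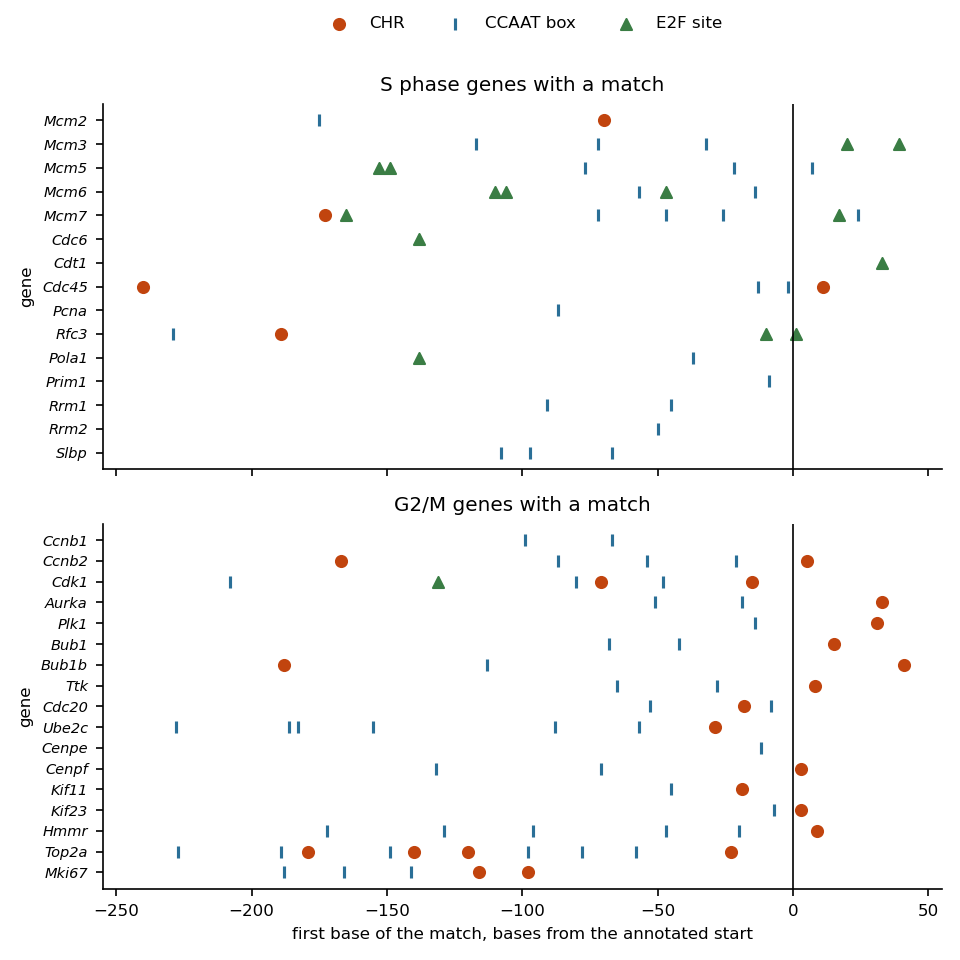
Position of each motif match (x axis, bases from the annotated start; 0 marked by a line) in the RefSeq windows of the S phase genes (upper panel) and G2/M genes (lower panel), one row per gene with a match. Circles are CHR elements, ticks CCAAT boxes and triangles E2F sites. CHR matches sit around the start in 14 G2/M windows, and E2F matches lie in 8 S phase windows and 1 G2/M window.

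The main question was whether the replication and mitosis genes differ between MN1 and MN1pQdel cells. The S phase genes lay higher in MN1 in most cases, by a median log2 fold change of 0.38, and the G2/M genes by a smaller median of 0.12, beside a median of -0.01 over the 14808 genes tested. The point estimate was above 0 for 20 of 24 S phase genes and 18 of 22 G2/M genes, against 49.3% of all genes tested, and below 0 for 4 of each, against 50.7%. With the 3 libraries of each group and group as the only term, 0 of 46 genes passed the test in either direction (edgeR quasi-likelihood, adjusted p by Benjamini-Hochberg under 0.05), where 6.08% of all tested genes were higher and 11.1% lower in MN1. At an unadjusted p under 0.05 the same fit had 7 S phase genes (Mcm2, Mcm3, Mcm4, Mcm7, Rfc4, Pola1 and Prim1) and 2 G2/M genes (Bub1b and Cdc20) higher in MN1 and 0 lower, against 16.8% of all genes higher and 21.0% lower. DESeq2 on the same counts called 3 S phase genes higher (Mcm2, Rfc4 and Pola1) and 0 G2/M genes, with 12.9% of all genes higher and 16.4% lower. Scaling by library totals called 3 S phase genes higher (Mcm3, Rfc4 and Pola1), with 12.5% of all genes higher and 7.70% lower.

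Same-numbered libraries deviated together from their group means, and a block for the number changed the count. No label gives such a pairing, so the block was chosen from the same counts that it was fitted to. That fit called 11 of 24 S phase genes higher in MN1 (Mcm2, Mcm3, Mcm4, Mcm6, Mcm7, Cdc6, Gins1, Rfc4, Pola1, Prim1 and Rrm1) and 1 of 22 G2/M genes (Cdc20), and 0 lower. The background in that fit was 13.7% of all tested genes higher and 17.0% lower, so the S phase share of 45.8% stood above it and the G2/M share of 4.55% below it. Without both replicate 2 libraries 14 S phase and 7 G2/M genes were called higher and 0 lower, with 17.4% of all genes called in each direction. Without MN1pQdel replicate 2 alone, 15 S phase and 10 G2/M genes were called higher and 1 S phase gene, Rfc2, lower, with 20.6% of all genes higher and 21.3% lower. Leaving out any of the other 5 transduced libraries called 0 of 46 genes. Those fits also called few genes elsewhere, with 95 to 275 higher and 378 to 685 lower of 15059 to 15274 tested. The passes given below without MN1pQdel replicate 2 were thus not seen with any other single library left out.

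**Figure D2:**
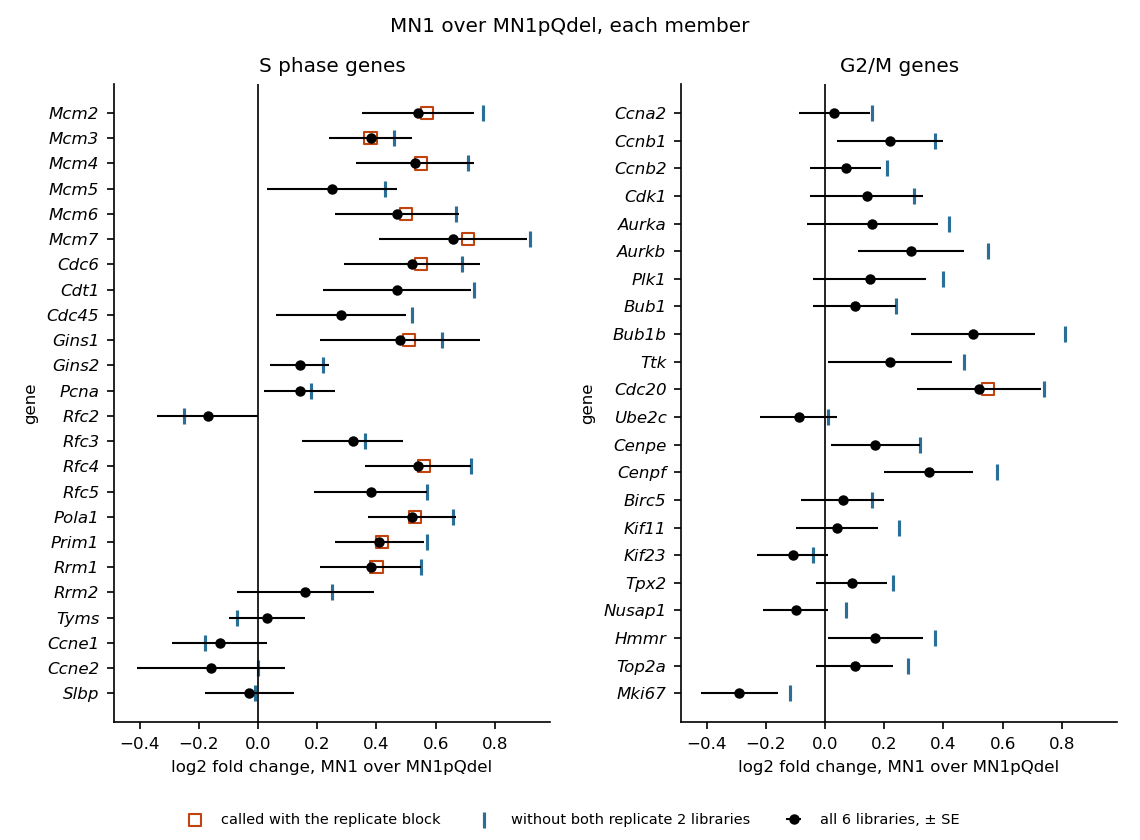
Log2 fold change of MN1 over MN1pQdel (x axis) for each S phase gene (left) and G2/M gene (right), ordered by role. Black points with bars are the fit of all 6 libraries with its standard error, open squares the fold changes called with the replicate block, and blue ticks the fit without both replicate 2 libraries. S phase genes range from -0.17 to 0.66 and G2/M genes from -0.29 to 0.52; 11 squares are in the left panel and 1 in the right.

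The 6 subunits of the Mcm2-7 helicase, the motor that opens the double helix, lay higher in MN1 together, with log2 fold changes from 0.25 (Mcm5) to 0.66 (Mcm7) and a median of 0.50. Mcm7 (chromosome 5, 138164583 to 138172422, GRCm38, minus strand) had 368, 419 and 336 CPM in MN1 replicates 1 to 3, 212, 329 and 166 CPM in MN1pQdel replicates 1 to 3 and 191 CPM in noTD. Every MN1 library was above every MN1pQdel library, and MN1pQdel replicate 2 came close to the lowest MN1 library. The mean was 374 ± 42.1 CPM in MN1 and 236 ± 83.9 CPM in MN1pQdel (SD, n = 3 each). The log2 fold change was 0.66 (SE 0.25, edgeR adjusted p = 0.106, and 0.0296 with the replicate block). Mcm4 (chromosome 16, 15623897 to 15637400) had 237, 272 and 219 CPM in MN1, 148, 218 and 135 CPM in MN1pQdel and 127 CPM in noTD, and its groups came close without overlapping. Its log2 fold change was 0.53 (SE 0.20, edgeR adjusted p = 0.104, and 0.0251 with the block). Mcm5 and Mcm6 were the 2 subunits whose groups overlapped, since MN1pQdel replicate 2 had 397 and 364 CPM of them where the lowest MN1 library had 315 and 358 CPM. The 6 had, without MN1pQdel replicate 2, log2 fold changes from 0.51 (Mcm3) to 0.99 (Mcm7), and all passed, at edgeR adjusted p from 0.00286 to 0.0345. With any other single library left out none of the 6 passed. Without MN1pQdel replicate 3, for example, Mcm2 had 0.41 (edgeR adjusted p = 0.216) and Mcm5 0.08 (0.801). Per kilobase of exon the 6 subunits had mean levels over the 7 libraries from 40.3 CPM per kb (Mcm2) to 95.8 CPM per kb (Mcm3). Exon length is that of all annotated exons of a gene merged, 6956 bases in Mcm2 and 3752 bases in Mcm3.

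The factors that load and start the helicase also had point estimates above 0. Cdc6, which recruits the helicase to origins, had 53.8, 74.1 and 59.9 CPM in MN1, 34.1, 57.8 and 37.8 CPM in MN1pQdel and 33.6 CPM in noTD. MN1pQdel replicate 2 lay between the MN1 libraries and the other MN1pQdel libraries were below all of them. The log2 fold change was 0.52 (SE 0.23, edgeR adjusted p = 0.138, and 0.0209 with the block). Cdc45, a partner of the active helicase, had 69.9, 80.7 and 67.4 CPM in MN1, 50.4, 81.4 and 46.9 CPM in MN1pQdel and 43.3 CPM in noTD. Here MN1pQdel replicate 2 was the highest of all 7 libraries, and the log2 fold change was 0.28 (SE 0.22, edgeR adjusted p = 0.385, and 0.123 with the block). Cdt1, the other loading factor, had a log2 fold change of 0.47 (SE 0.25) and the GINS subunit Gins1 one of 0.48 (SE 0.27), while Gins2 had 0.14 (SE 0.10). Without MN1pQdel replicate 2 Cdc6 (0.80, edgeR adjusted p = 0.00929), Cdt1 (0.81, 0.00736), Cdc45 (0.58, 0.0103) and Gins1 (0.78, 0.0295) passed and Gins2 (0.21, 0.109) did not. Exons of Gins2 overlap exons of Gse1 on the other strand, to an extent not resolved here. Without a stated strand, reads from the shared bases cannot be told apart.

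Of the sliding clamp and its loader, the clamp gene Pcna averaged 392 ± 32.8 CPM in MN1 and 353 ± 35.2 CPM in MN1pQdel (SD, n = 3 each). Its log2 fold change was 0.14 (SE 0.12). It had the highest level per length of the 46 genes, at a mean of 152 CPM per kb over the 7 libraries. Rfc4, a loader subunit, had 32.9, 34.5 and 30.6 CPM in MN1, 21.0, 27.8 and 18.1 CPM in MN1pQdel and 20.0 CPM in noTD. Its groups did not overlap, and the log2 fold change was 0.54 (SE 0.18, edgeR adjusted p = 0.0797, and 0.0334 with the block). Rfc3 and Rfc5, further loader subunits, had log2 fold changes of 0.32 (SE 0.17) and 0.38 (SE 0.19). Rfc2 went against the other loader genes: it had 150, 132 and 140 CPM in MN1, 177, 119 and 175 CPM in MN1pQdel and 185 CPM in noTD, and a log2 fold change of -0.17 (SE 0.17, edgeR adjusted p = 0.495), which was 0.04 under scaling by library totals. Rfc2 was called lower without MN1pQdel replicate 2, at -0.31 (edgeR adjusted p = 0.0401). In that fit Rfc4 (0.74, edgeR adjusted p = 0.00746) and Rfc5 (0.61, 0.0110) were higher, while Rfc3 (0.45, 0.0681) and Pcna (0.22, 0.171) did not pass. Exons of Rfc2 overlap exons of Lat2, an adaptor gene of myeloid cells on the other strand, to an extent not resolved here. Lat2 had 156, 85.7 and 151 CPM in MN1, 412, 98.8 and 479 CPM in MN1pQdel and 444 CPM in noTD. Both genes were highest in MN1pQdel replicates 1 and 3 and noTD, and the part of Lat2 reads in the Rfc2 counts was not tested.

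Polymerase alpha and primase, which lay down the primers, held the gene with the smallest p-value among the 46, Pola1. Pola1 (chromosome X, 93304767 to 93632155, minus strand), the catalytic subunit of polymerase alpha, had 97.9, 104 and 90.0 CPM in MN1, 64.4, 80.7 and 56.9 CPM in MN1pQdel and 55.9 CPM in noTD. The 3 MN1 libraries were above the 3 MN1pQdel libraries, and all 6 were above noTD. The mean was 97.4 ± 7.06 CPM in MN1 and 67.4 ± 12.2 CPM in MN1pQdel (SD, n = 3 each), and the log2 fold change was 0.52 (SE 0.15). Its adjusted p was 0.0542 in the edgeR quasi-likelihood test, 0.0183 with the block and 0.0177 with DESeq2. The primase subunit Prim1 had a log2 fold change of 0.41 (SE 0.15, edgeR adjusted p = 0.101, and 0.0432 with the block). With MN1pQdel replicate 2 left out Pola1 had 0.69 (edgeR adjusted p = 0.00515) and Prim1 0.58 (0.00768).

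The genes of nucleotide supply were uneven. Rrm1, the large subunit of ribonucleotide reductase, had 395, 449 and 396 CPM in MN1, 290, 394 and 260 CPM in MN1pQdel and 271 CPM in noTD. Its groups almost met, and the log2 fold change was 0.38 (SE 0.17, edgeR adjusted p = 0.146, and 0.0488 with the block). Rrm2, the small subunit, had 335 ± 72.8 CPM in MN1 and 299 ± 80.2 CPM in MN1pQdel (SD, n = 3 each), with a log2 fold change of 0.16 (SE 0.23). Tyms, thymidylate synthase, had 92.1 ± 7.22 CPM in MN1 and 89.2 ± 11.8 CPM in MN1pQdel, with a log2 fold change of 0.03 (SE 0.13). Rrm1 passed without MN1pQdel replicate 2, at 0.59 (edgeR adjusted p = 0.00820), and Rrm2 (0.41, 0.115) and Tyms (-0.05, 0.733) did not. In Tyms and Rfc2 the lowest transduced library was MN1pQdel replicate 2. These 2 of 24 S phase genes (8.33%) are near the share of all genes, 9.52%.

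The cyclins that start S phase and the histone mRNA binder stood apart from the replication machinery. Ccne2, a cyclin E that activates Cdk2 at the start of S phase, had 24.4, 32.7 and 37.2 CPM in MN1, 23.9, 41.9 and 38.8 CPM in MN1pQdel and 25.9 CPM in noTD. The 2 replicate 1 libraries and noTD were low and the other 4 libraries high, whatever the group, and the log2 fold change was -0.16 (SE 0.25, edgeR adjusted p = 0.667). Ccne1, the other cyclin E, and Slbp, which binds histone mRNA stem-loops, had log2 fold changes of -0.13 (SE 0.16) and -0.03 (SE 0.15). Scaling by library totals turned all 3 above 0, to 0.04 for Ccne2, 0.07 for Ccne1 and 0.16 for Slbp, where it moved the median of all tested genes by 0.20. Leaving out MN1pQdel replicate 2 gave Ccne2 0.01, Ccne1 -0.06 and Slbp 0.09, with edgeR adjusted p of 0.614 or more. Exons of Ccne2 overlap exons of a gene on the other strand, Ints8, which had 45.2 to 53.0 CPM in MN1 and 42.8 to 54.0 CPM in MN1pQdel.

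**Figure D3:**
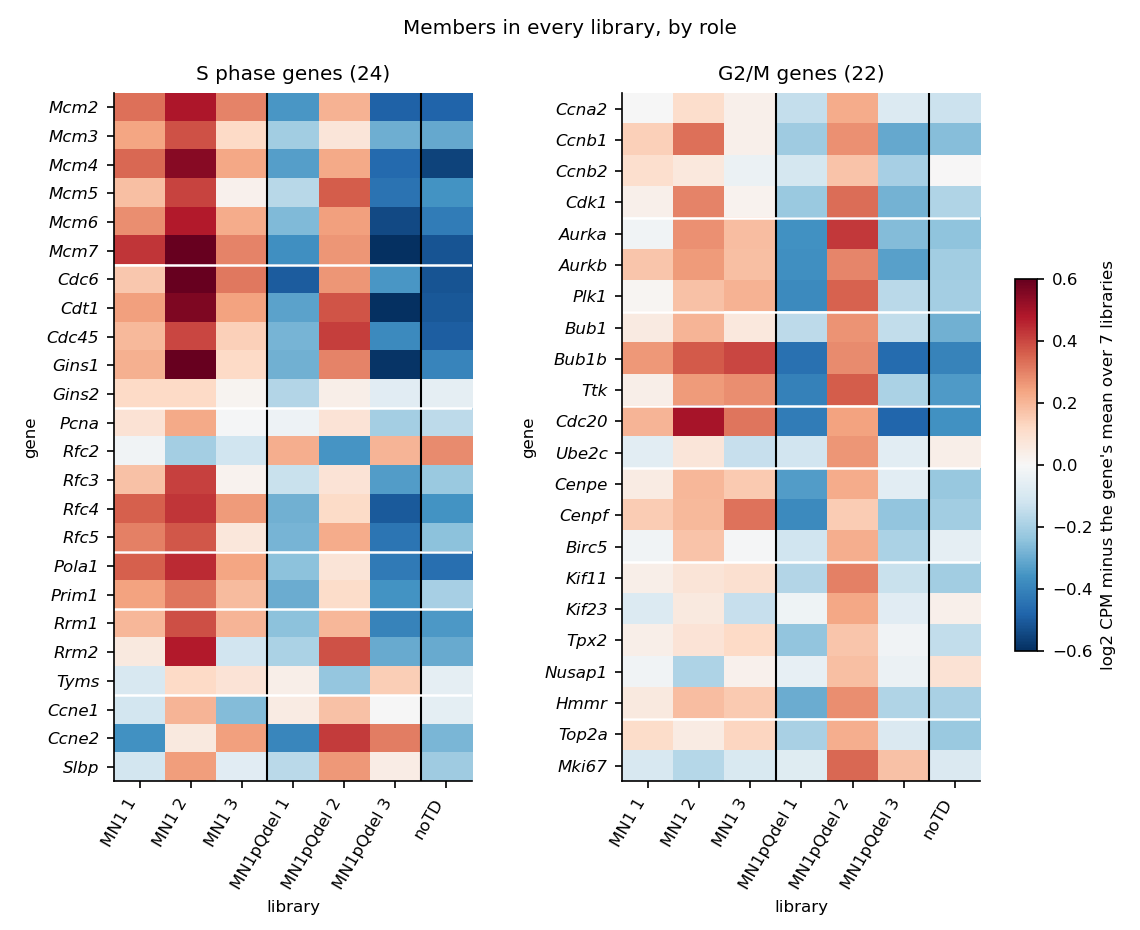
Log2 CPM of each S phase gene (left) and G2/M gene (right) minus the gene's mean over the 7 libraries (colour scale, clipped at -0.6 and 0.6), with genes in rows grouped by role (white lines) and libraries in columns (black lines part MN1, MN1pQdel and noTD). MN1 replicate 2 is the darkest red in most S phase rows, MN1pQdel replicate 2 is above the other MN1pQdel libraries in 22 of 24 S phase and 22 of 22 G2/M rows, and Rfc2 runs the other way.

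Of the 3 mitotic cyclins and their kinase none passed the edgeR test with all 6 libraries, and Ccnb1 and Cdk1 passed without MN1pQdel replicate 2. Ccnb1, the cyclin B that drives entry into mitosis, had 179, 204 and 166 CPM in MN1, 140, 196 and 131 CPM in MN1pQdel and 136 CPM in noTD. MN1pQdel replicate 2 was above MN1 replicates 1 and 3, and the log2 fold change was 0.22 (SE 0.18, edgeR adjusted p = 0.381). Its kinase partner Cdk1 had 132 ± 14.9 CPM in MN1 and 119 ± 29.5 CPM in MN1pQdel (SD, n = 3 each), with a log2 fold change of 0.14 (SE 0.19). Ccna2 and Ccnb2, a cyclin A and a cyclin B, had log2 fold changes of 0.03 and 0.07 (SE 0.12 each). Without MN1pQdel replicate 2 Ccnb1 had 0.44 (edgeR adjusted p = 0.0259) and Cdk1 0.38 (0.0432), against 0.17 (0.170) for Ccna2 and 0.20 (0.146) for Ccnb2.

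Among the mitotic kinases, Aurkb, of the chromosomal passenger complex, had 109, 116 and 110 CPM in MN1, 75.2, 119 and 77.5 CPM in MN1pQdel and 84.1 CPM in noTD. The MN1 libraries were alike, and MN1pQdel replicate 2 was above all of them while replicates 1 and 3 were below noTD. The log2 fold change was 0.29 (SE 0.18, edgeR adjusted p = 0.276) with all 6 libraries and 0.55 (edgeR adjusted p = 0.00436) without MN1pQdel replicate 2. Aurka, which matures the spindle poles, had log2 fold changes of 0.16 (SE 0.22) with that library and 0.47 (edgeR adjusted p = 0.0221) without it, and Plk1, the Polo kinase, 0.15 (SE 0.19) with it and 0.41 (0.0289) without it.

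The spindle checkpoint and the APC/C held the largest values among the G2/M genes. Bub1b (chromosome 2, 118598211 to 118641591, plus strand), which encodes BubR1, an inhibitor of the APC/C in the mitotic checkpoint complex, had 148, 159 and 163 CPM in MN1, 90.5, 150 and 89.5 CPM in MN1pQdel and 93.4 CPM in noTD. The MN1 libraries were high, MN1pQdel replicates 1 and 3 stood at the level of noTD, and MN1pQdel replicate 2 lay among the MN1 libraries. The log2 fold change was 0.50 (SE 0.21, edgeR adjusted p = 0.129, and 0.0700 with the block), against 0.80 (edgeR adjusted p = 0.00177) without MN1pQdel replicate 2. Bub1, a kinetochore kinase of the checkpoint, had 70.2, 78.0 and 70.8 CPM in MN1, 60.7, 81.6 and 61.0 CPM in MN1pQdel and 55.4 CPM in noTD. Ttk, the Mps1 kinase that starts checkpoint signalling, had 26.3, 30.6 and 31.1 CPM in MN1, 19.4, 33.0 and 22.5 CPM in MN1pQdel and 20.3 CPM in noTD. Both had MN1pQdel replicate 2 as their highest library, and log2 fold changes of 0.10 (SE 0.14) for Bub1 and 0.22 (SE 0.21) for Ttk, which were 0.27 (edgeR adjusted p = 0.0652) and 0.49 (0.0351) without it. Cdc20 (chromosome 4, 118432901 to 118437352, minus strand), the activator of the APC/C at the end of mitosis, had 151, 185 and 164 CPM in MN1, 98.0, 155 and 94.2 CPM in MN1pQdel and 102 CPM in noTD. MN1pQdel replicate 2 was above MN1 replicate 1, and the other MN1pQdel libraries were below noTD. Its log2 fold change of 0.52 (SE 0.21, edgeR adjusted p = 0.120) passed with the block, at 0.55 (adjusted p = 0.0347), and without MN1pQdel replicate 2, at 0.80 (0.00334). Ube2c, the ubiquitin-conjugating enzyme of the APC/C, had a log2 fold change of -0.09 (SE 0.13), which was 0.10 under scaling by library totals. Without MN1pQdel replicate 2 Ube2c had 0.05 (edgeR adjusted p = 0.708).

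At the kinetochore and on the spindle, Cenpf, a large protein of the outer kinetochore, had 103, 106 and 116 CPM in MN1, 71.2, 103 and 78.7 CPM in MN1pQdel and 80.3 CPM in noTD. Its groups did not overlap, with MN1pQdel replicate 2 next to MN1 replicate 1, and the log2 fold change was 0.35 (SE 0.15, edgeR adjusted p = 0.134, and 0.0879 with the block). The kinetochore motor Cenpe and the passenger protein Birc5 (survivin) had log2 fold changes of 0.17 (SE 0.15) and 0.06 (SE 0.14). Hmmr, a spindle pole protein, had 94.6, 103 and 101 CPM in MN1, 73.7, 110 and 80.0 CPM in MN1pQdel and 79.2 CPM in noTD, with MN1pQdel replicate 2 the highest, and a log2 fold change of 0.17 (SE 0.16, edgeR adjusted p = 0.464). The motors Kif11 and Kif23 and the spindle assembly factors Tpx2 and Nusap1 had log2 fold changes from -0.11 to 0.09. Without MN1pQdel replicate 2 Cenpf (0.54, edgeR adjusted p = 0.00832) and Hmmr (0.38, 0.0198) passed, Cenpe (0.34, 0.0524) and Birc5 (0.21, 0.150) did not, and the motors and assembly factors ran from -0.01 (Nusap1) to 0.23 (Kif11) with 0 called. The values of Kif23 (-0.11) and Nusap1 (-0.10) were 0.08 and 0.09 under scaling by library totals.

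Mki67 and Top2a, the most abundant of the 46 genes in CPM, did not share a direction. Mki67 (chromosome 7, 135689784 to 135716361, minus strand), which coats mitotic chromosomes and is used as a marker of cells in cycle, had 609, 578 and 612 CPM in MN1, 620, 828 and 735 CPM in MN1pQdel and 613 CPM in noTD. All MN1 libraries were below all MN1pQdel libraries, at 612 against 620 CPM where they came closest, and noTD lay between. The mean was 600 ± 19.2 CPM in MN1 and 728 ± 104 CPM in MN1pQdel (SD, n = 3 each), and the log2 fold change was -0.29 (SE 0.13, edgeR adjusted p = 0.151, and 0.133 with the block). Top2a, the topoisomerase that untangles chromosomes, had 588, 564 and 596 CPM in MN1, 477, 634 and 513 CPM in MN1pQdel and 468 CPM in noTD, and a log2 fold change of 0.10 (SE 0.13). Leaving out MN1pQdel replicate 2 gave Mki67 -0.17 (edgeR adjusted p = 0.255) and Top2a 0.24 (0.0863). Under scaling by library totals Mki67 had -0.09 (edgeR adjusted p = 0.667). Per length Mki67 and Top2a had means of 65.2 and 60.9 CPM per kb over the 7 libraries, and the lowest of the 46 were Ttk at 5.32 and Cenpf at 6.09 CPM per kb.

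**Figure D4:**
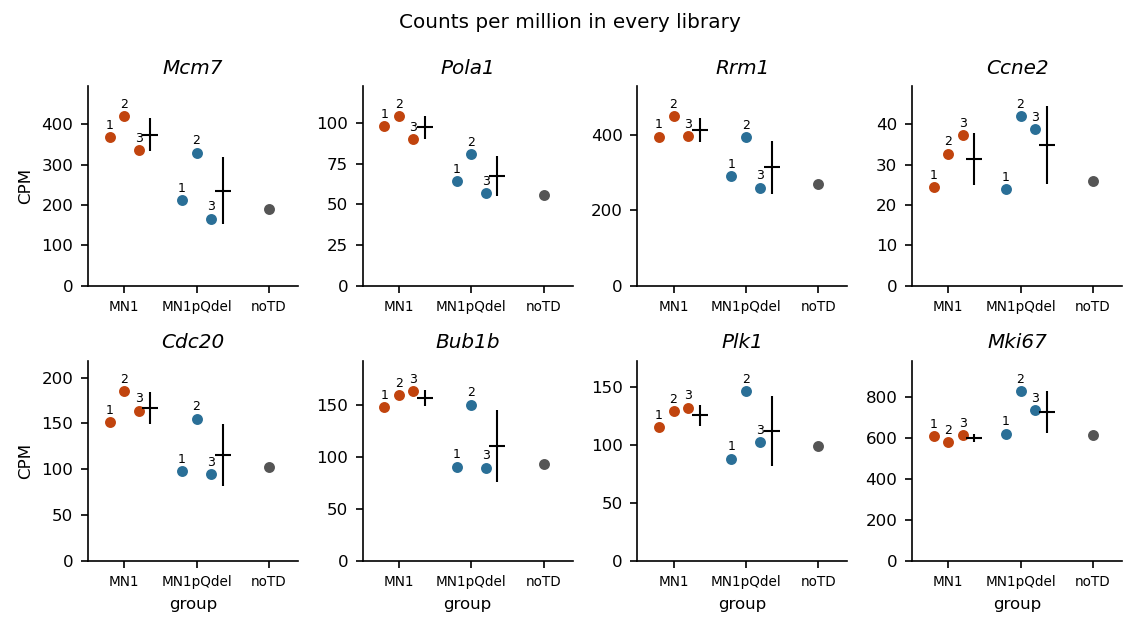
CPM (y axis, from 0) of 4 S phase genes (upper row) and 4 G2/M genes (lower row) in each MN1, MN1pQdel and noTD library. Points are libraries with their replicate number, and the bar beside each transduced group is its mean ± SD (n = 3). In Mcm7, Pola1 and Rrm1 the 3 MN1 libraries are above the 3 MN1pQdel libraries, in Cdc20, Bub1b and Plk1 MN1pQdel replicate 2 lies among or above the MN1 libraries, and in Mki67 all MN1 libraries are below.

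Over all 46 genes, the groups did not overlap for 8 of 24 S phase genes, all higher in MN1 (Mcm2, Mcm3, Mcm4, Mcm7, Rfc4, Pola1, Prim1 and Rrm1), against 21.9% of all tested genes higher and 21.7% lower. Of the 22 G2/M genes 1 was higher (Cenpf) and 1 lower (Mki67) without overlap, which is below that background in both directions. Without both replicate 2 libraries, a comparison added after the data were seen, 19 S phase and 19 G2/M genes were higher and 2 of each lower without overlap, where 36.4% of all genes were higher and 35.4% lower. The lower ones were Rfc2 and Ccne1, and Kif23 and Mki67.

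The 3 same-numbered pairs showed where the phases parted. S phase genes had a median log2 ratio of MN1 over MN1pQdel of 0.46 in pair 1, 0.20 in pair 2 and 0.51 in pair 3, with 21, 21 and 19 of 24 genes above 0. G2/M genes had medians of 0.29, -0.10 and 0.22, with 20, 4 and 19 of 22 genes above 0. The medians over all tested genes were 0.02, 0.00 and 0.01. So in pair 2 most S phase genes were higher in MN1 while most G2/M genes were lower, and Cdc20 (0.25), Bub1b (0.09), Ccnb1 (0.06) and Cenpf (0.04) were the G2/M genes above 0 there. In all 3 pairs 18 of 24 S phase genes and these 4 of 22 G2/M genes were higher in MN1, and 0 S phase and 2 G2/M genes (Kif23 and Mki67) lower, against 34.2% of all genes higher and 33.7% lower in 3 of 3 pairs. Under scaling by library totals 21 S phase and 11 G2/M genes were higher in all 3 pairs and 0 lower, against 45.4% of all genes higher and 23.9% lower.

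**Figure D5:**
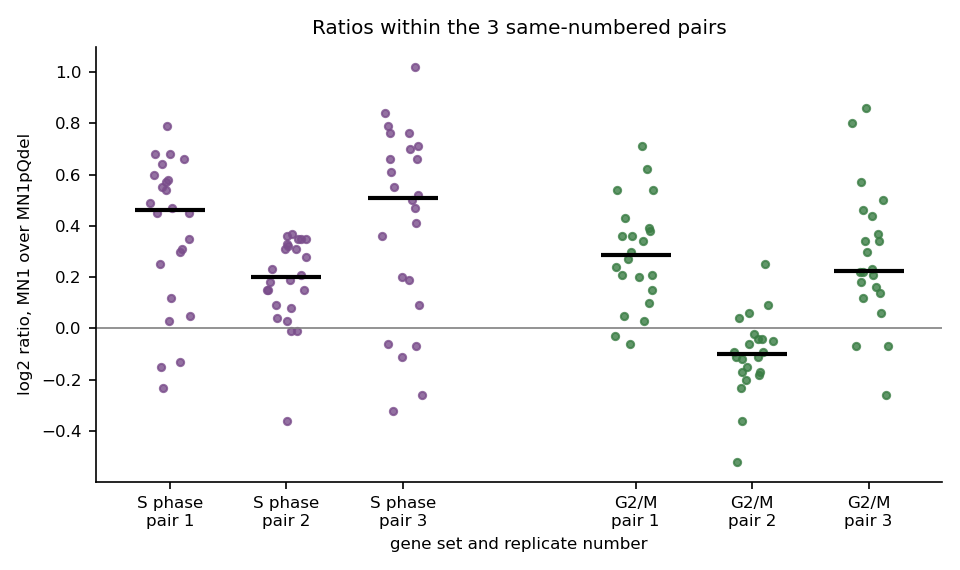
Log2 ratio of MN1 over MN1pQdel (y axis) for each S phase gene (purple, 24 points per column) and G2/M gene (green, 22 points per column) in the 3 same-numbered pairs of libraries, with the median as a black bar; points are spread sideways at random to show them. S phase medians are 0.46, 0.20 and 0.51 and G2/M medians 0.29, -0.10 and 0.22, so the G2/M column of pair 2 is the one centred below 0.

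The spread of these genes came mostly from the MN1pQdel group and from replicate 2. The median SD of log2 CPM over the 3 MN1 libraries was 0.15 for S phase and 0.09 for G2/M genes, beside 0.19 for all tested genes, and over the 3 MN1pQdel libraries it was 0.33 and 0.27, beside 0.29. MN1pQdel replicate 2 was above both other MN1pQdel libraries in 22 of 24 S phase and 22 of 22 G2/M genes, against 40.5% of all genes, with median log2 excesses of 0.51 and 0.44. It was the highest of the 6 transduced libraries in 18 of 22 G2/M genes but in 3 of 24 S phase genes (Cdc45, Ccne2 and Slbp), where 10.3% of all genes had it highest. MN1 replicate 2 was the highest in 19 of 24 S phase genes and in 2 of 22 G2/M genes (Ccnb1 and Cdc20), against 21.1% of all genes, and the lowest in 2 others (Mki67 and Nusap1), against 19.8%. MN1 replicate 1 was neither the highest nor the lowest of the 6 in any of the 46 genes, against 9.89% and 9.20% of all genes. At the low end MN1pQdel replicate 3 was the lowest in 17 of 24 S phase and 6 of 22 G2/M genes (25.9% of all genes), and MN1pQdel replicate 1 in 12 of 22 G2/M and 4 of 24 S phase genes (18.4% of all genes). In the MN1pQdel group the library with more replication and mitosis counts thus also had the low eosinophil, mast cell and basophil markers. That library had the least Mn1 RNA of its group as well, at 403 CPM against 686 and 730 CPM in replicates 1 and 3. The part of the markers or of the Mn1 level in the result was not tested. In MN1 the eosinophil, mast cell and basophil sums were also lowest in replicate 2, at 13.3 and 1810 CPM. In bulk samples fewer cells in S phase or mitosis and less of each RNA per cell cannot be told apart.

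Summed by phase, the S phase genes took 4160, 4750 and 3940 CPM in MN1 replicates 1 to 3, 3150, 4140 and 2870 CPM in MN1pQdel replicates 1 to 3 and 2920 CPM in noTD. The G2/M genes took 3500, 3660 and 3600 CPM in MN1, 2970, 4100 and 3180 CPM in MN1pQdel and 3040 CPM in noTD. Both sums of MN1pQdel replicate 2 exceed those of at least 1 MN1 library, and its G2/M sum is the highest of all 7. The ratio of the S phase sum to the G2/M sum was 1.19, 1.30 and 1.10 in MN1, 1.06, 1.01 and 0.902 in MN1pQdel and 0.961 in noTD. By this ratio the 3 MN1 libraries were the highest 3 of the 7, replicate 2 of MN1pQdel included, so that it was higher in MN1 in 3 of 3 same-numbered pairs. Sums give most weight to abundant genes. The difference between the phases' median log2 levels over noTD, which weights genes equally, was 0.31, 0.36 and 0.15 in MN1 and 0.17, 0.07 and -0.01 in MN1pQdel, so MN1 replicate 3 lay just below MN1pQdel replicate 1 by that measure.

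Against the single noTD library there is no test, and both transduced groups were set against that same library. With TMM scaling the group mean of each of the 46 genes stayed within a 2-fold difference of noTD in both groups, where 10.7% of 16216 genes were past 2-fold higher and 16.9% lower in MN1, and 1.58% higher and 3.55% lower in MN1pQdel. With library totals 6 S phase genes (Cdc6, Cdt1, Mcm2, Mcm4, Mcm7 and Pola1) were past 2-fold higher in MN1, against 15.2% of all genes higher and 13.5% lower. Without MN1 replicate 3 Mcm4 and Mcm7 were, against 10.9% higher and 16.6% lower, and in MN1 replicate 2 alone the S phase genes reached a log2 difference of 1.14. The S phase genes had a median log2 difference from noTD of 0.56 in MN1 and 0.22 in MN1pQdel, and the G2/M genes of 0.32 and 0.13, beside 0.02 for all tested genes in both. With library totals these were 0.77 in MN1 and 0.24 in MN1pQdel for S phase genes and 0.54 and 0.16 for G2/M genes, beside 0.24 and 0.04 for all tested genes. noTD lay below all 3 MN1 libraries in 20 of 24 S phase and 17 of 22 G2/M genes, against 40.3% of all genes, and above them in Rfc2, Mki67 and Nusap1, against 40.2%. It lay below all 3 MN1pQdel libraries in 7 of 24 S phase genes and 4 of 22 G2/M genes (Bub1, Kif11, Top2a and Mki67), against 20.7%, and above them in Rfc2 alone of the 46, against 20.1%. Without MN1 replicate 2 the counts below MN1 were again 20 and 17, against 43.4%, and noTD lay above the other 2 in 2 S phase and 4 G2/M genes, against 43.2%. Without MN1pQdel replicate 2, noTD lay below the other 2 MN1pQdel libraries in 8 S phase and 4 G2/M genes, against 30.9%, and above them in 4 S phase and 11 G2/M genes, against 28.5%. Both of these were added after the data were seen.

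The genes farthest from noTD in MN1 were Mcm7 and Mcm4 among the S phase genes and Bub1b and Cdc20 among the G2/M genes, with log2 differences of 0.97, 0.93, 0.74 and 0.70. In MN1pQdel the same 4 genes had 0.25, 0.37, 0.19 and 0.14. Farthest from noTD in MN1pQdel were Cdc45 (0.41), Ccne2 (0.39), Bub1 (0.27) and Ttk (0.26), for which MN1 had 0.74, 0.26, 0.40 and 0.53. Mcm7 had 6867 counts in noTD and Ttk 731, and their exact Poisson intervals (95%, counting error only) of 186 to 195 CPM and 18.9 to 21.8 CPM are narrow beside the spread of the transduced libraries. By library, the median difference of the S phase genes from noTD was 0.54, 0.75 and 0.47 in MN1 and 0.10, 0.53 and -0.03 in MN1pQdel. For the G2/M genes it was 0.23, 0.38 and 0.33 in MN1 and -0.06, 0.46 and -0.02 in MN1pQdel. MN1pQdel replicates 1 and 3 thus stood at the level of noTD for both phases, as they did for the eosinophil, mast cell and basophil sums. MN1pQdel replicate 2 lay within the range of MN1 for the S phase genes and above it for the G2/M genes. Its eosinophil sum of 235 CPM was still above the 13.3 to 21.4 CPM of MN1, and its neutrophil sum of 36600 CPM lay between those of the other MN1pQdel libraries.

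The pathway around the 46 genes was followed in 9 lists of 181 further genes, of which 180 were tested. The background for the counts that passed in each list is 6.08% of all tested genes higher and 11.1% lower in MN1. Among 27 replicative polymerase and fork genes 26 had a point estimate above 0 (49.3% of all genes did), with a median log2 fold change of 0.33, and 1 passed: Pold2, a subunit of polymerase delta, was higher in MN1. It had 93.5, 106 and 88.6 CPM in MN1, 47.4, 69.9 and 41.6 CPM in MN1pQdel and 47.6 CPM in noTD, and its log2 fold change was 0.85 (SE 0.20, edgeR adjusted p = 0.0352). With the block 9 of the 27 passed, all higher, where 13.7% of all genes were higher and 17.0% lower. Among 18 origin recognition and licensing genes 17 were above 0 and 1 passed, Mcm8, a relative of the helicase subunits that acts in DNA repair, at 19.7 ± 0.390 CPM in MN1 and 11.9 ± 1.68 CPM in MN1pQdel (SD, n = 3 each; log2 fold change 0.72, SE 0.16, edgeR adjusted p = 0.0295). Of 9 genes of deoxynucleotide supply 1 was higher and 1 lower. Dctd, which deaminates dCMP toward thymidylate, had 27.2 ± 4.45 CPM in MN1 and 14.2 ± 3.68 CPM in MN1pQdel (log2 fold change 0.93, edgeR adjusted p = 0.0366), and Samhd1, which breaks deoxynucleotides down, had 108 ± 16.1 CPM in MN1 and 195 ± 54.4 CPM in MN1pQdel (log2 fold change -0.86, edgeR adjusted p = 0.0449, and 0.0635 with library totals).

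The transcription factors that act on these genes held the largest fold change among the pathway genes that passed. Of 20 genes of E2F, pocket protein and MuvB factors 1 was higher and 3 lower in MN1, and 9 were above 0. E2f2, an activating E2F, had 38.5, 34.9 and 37.9 CPM in MN1, 101, 88.6 and 113 CPM in MN1pQdel and 118 CPM in noTD. The MN1 libraries were far below all others, with MN1pQdel replicate 2 at 88.6 CPM close to the other MN1pQdel libraries, and the log2 fold change was -1.45 (SE 0.13, edgeR adjusted p = 0.00448). With each of the 6 transduced libraries left out in turn E2f2 passed every time, at edgeR adjusted p from 0.000578 to 0.0261. Rb1, the retinoblastoma protein that holds E2F factors in check, was lower in MN1 at 45.2 ± 9.00 CPM against 93.0 ± 21.2 CPM in MN1pQdel (SD, n = 3 each; log2 fold change -1.05, edgeR adjusted p = 0.0254). E2f8, a repressing E2F, was lower at -0.51 (edgeR adjusted p = 0.0371, and 0.144 with library totals), and Tfdp2, a dimer partner of E2F, was higher at 0.86 (edgeR adjusted p = 0.0238). Mybl2, which encodes B-Myb, had 144, 176 and 126 CPM in MN1, 104, 172 and 80.6 CPM in MN1pQdel and 86.0 CPM in noTD (log2 fold change 0.31, edgeR adjusted p = 0.442, and 0.57 and 0.0442 without both replicate 2 libraries). Foxm1, the other G2/M activator, had 78.8, 77.4 and 69.4 CPM in MN1, 73.3, 87.1 and 70.2 CPM in MN1pQdel and 79.0 CPM in noTD, with a log2 fold change of -0.04 (edgeR adjusted p = 0.816). The activating E2f1 had -0.13 (0.497) and E2f3 0.14 (0.644), so of these 4 activators beside E2f2 none passed with all 6 libraries.

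On the mitotic side 0 genes of mitotic entry (14), centromere and kinetochore (36), condensin and cohesin (17 tested) and mitotic kinesins and cytokinesis (23) passed the edgeR test. Over all tested genes 6.08% were higher and 11.1% lower. With the block 2, 0, 1 and 1 passed, all higher in MN1, against 13.7% of all genes higher and 17.0% lower. At an unadjusted p under 0.05 edgeR had 1, 0, 2 and 1 of them higher and 1, 0, 1 and 0 lower, against 16.8% and 21.0% of all genes. DESeq2 called 1 kinesin and cytokinesis gene higher and 1 condensin and cohesin gene lower, against 12.9% and 16.4% of all genes. The median log2 fold changes of these lists were 0.15, 0.11, 0.16 and 0.10. The most abundant of each were Cks2, a Cdk1 partner, at 0.04, Hjurp, a loader of centromeric histone, at -0.09, the cohesin subunit Rad21 at -0.04 and Ckap5, a microtubule polymerase, at 0.22. Of 16 APC/C subunits Anapc7 was higher (0.41, edgeR adjusted p = 0.0498) and Anapc11, the RING subunit, lower (-0.36, edgeR adjusted p = 0.0494, and 0.259 with library totals). DESeq2 called 5, 3, 4, 2 and 1 genes higher in the polymerase and fork, licensing, deoxynucleotide, E2F and APC/C lists. It called 0, 0, 1, 4 and 1 lower. At an unadjusted p under 0.05 edgeR had 9, 5, 4, 4 and 1 higher and 0, 0, 1, 4 and 1 lower. With the block 9, 4, 5, 4 and 1 were higher and 0, 0, 1, 4 and 1 lower. The shares of all genes are those given above for each test. Without both replicate 2 libraries 16 of the 27 polymerase and fork genes, 7 of the 18 licensing genes and 7 of the 17 condensin and cohesin genes were called higher and 0 lower, with 17.4% of all genes called in each direction. In the same fit 1 of 36 centromere and kinetochore genes, 3 of 23 kinesin and cytokinesis genes and 3 of 14 mitotic entry genes were higher and 0 lower. Of the deoxynucleotide genes 5 of 9 were higher and 1 lower, of the E2F, pocket protein and MuvB genes 4 of 20 higher and 4 lower, and of the APC/C subunits 5 of 16 higher and 1 lower. Of the 10 pathway genes that passed with all 6 libraries, E2f2 passed in all 6 fits with a library left out and Rb1 in 2 (without MN1 replicate 1 or MN1pQdel replicate 2). The other 8 passed in 1 of these fits, the one without MN1pQdel replicate 2, at edgeR adjusted p up to 0.164 in the others and with the same sign throughout.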

How the data were processed

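Poly(A) RNA was measured in 7 libraries: 3 MN1, 3 MN1pQdel and 1 noTD, grouped by sample title. The authors deposited one table of estimated counts per gene symbol, not normalised. The tools kallisto and DESeq2 and the build GRCm38 are named per the submitters' processing notes, with no version; the transcript index and strand are not given in the sources read here. Of its values 32.5% were not whole (tolerance 1e-06); they were rounded. All 7 sample columns were used. The labels give no batch.

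Genes were filtered with filterByExpr on the 2 transduced groups (14808 left), scaled by TMM and tested in edgeR 4.0.16 (R 4.3.3) by quasi-likelihood, 3 MN1 against 3 MN1pQdel libraries with no other term. P-values were adjusted by Benjamini-Hochberg over all tested genes, with a threshold of 0.05. DESeq2 1.42.0 was an alternative. CPM used TMM over all 7 libraries, and log2 CPM a prior count of 2. The code was tested on simulated data.

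Replicates of a group were distinct (chi-square per gene 43.3 to 352). Same-numbered libraries deviated together from their group means (correlations across genes of 0.368, 0.259 and 0.320), and differently numbered ones did not (-0.282 to -0.0602). Deviations from a group mean cancel within the group, so positive same-number values by themselves push the others to negative values. Since each same-number value is above 0.1 the replicate numbers are treated as pairs on the strength of the data, as no label explains them.

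The 46 members, the pathway and marker lists and the settings were chosen with earlier results of these data known. Full values are given for the gene with the largest absolute fold change in each of 13 roles and for the 2 genes of each phase farthest from noTD in each group. From the pathway lists up to 3 passing genes are named, or the most abundant; E2f1, E2f3, E2f8, Foxm1, Mybl2 and the other members named with values were chosen after their values were seen. Coordinates and exon lengths come from GENCODE on GRCm38, matched by symbol (46 of 46). Lengths merge all annotated exons of a gene, so levels per length depend on the annotation and need not follow the transcripts present. Exons of 13 members overlap a gene on the other strand. Named pseudogenes of 4 members held few counts (at most 466 over all libraries).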

Additional observations from a re-analysis of the deposited data

How the results depend on the processing

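With the replicate number as a block, a pairing read from the same counts, 2022 genes were higher and 2523 lower in MN1, and 11 S phase genes and 1 G2/M gene were called. Without both replicate 2 libraries the counts were 2630 and 2617 over all genes, and 14 and 7 among the members. The median of the S phase genes was 0.57 with library totals, which called 1847 genes higher, 3 S phase genes included. They put 11 G2/M genes higher in all pairs (45.4% of all genes) and 6 members past 2-fold over noTD in MN1 (15.2% of all genes). DESeq2 called 1907 genes and 3 S phase genes higher. Leaving out single libraries gave 95 to 3146 genes higher and 378 to 3248 lower, 0 to 15 S phase genes higher and 0 to 1 lower, 0 to 10 G2/M genes higher, and S phase medians from 0.26 to 0.58. G2/M medians then ran from 0.03 without MN1pQdel replicate 1 and 0.06 without replicate 3 to 0.30 without replicate 2. From 0 to 2 members were past 2-fold over noTD (2 without MN1 replicate 3, where 10.9% of all genes were). Non-overlap without both replicate 2 libraries held for 19 S phase and 19 G2/M genes higher and 2 of each lower. Of all genes 36.4% were higher and 35.4% lower by that rule. Signs turned in several members. With library totals they were Rfc2 (0.04), Ccne1 (0.07), Ccne2 (0.04), Slbp (0.16), Ube2c (0.10), Kif23 (0.08) and Nusap1 (0.09), and without both replicate 2 libraries Tyms (-0.07), Ube2c (0.01) and Nusap1 (0.07). With single libraries left out, values ran from -0.03 to 0.41 for Rrm2, -0.05 to 0.12 for Tyms, -0.36 to 0.01 for Ccne2, -0.15 to 0.09 for Slbp, -0.03 to 0.17 for Ccna2, -0.01 to 0.20 for Ccnb2, -0.15 to 0.05 for Ube2c, -0.02 to 0.21 for Birc5, -0.03 to 0.23 for Kif11 and -0.17 to 0.00 for Kif23. The cause was not tested. RLE size factors and no filter on low counts kept all 46 members on their side of the threshold and in their direction. With 3 libraries a group and a median standard error of 0.18 for S phase and 0.15 for G2/M genes, log2 differences of that size are not resolved. Libraries held 38210660 to 67728658 counts, of which the members took 0.556% to 0.902%.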
